A study of Arabidopsis thaliana with 6 samples.

Results

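Late pollen and pollen tube genes are 39 *Arabidopsis thaliana* loci, picked by locus identifier for their known roles in the male gametophyte out of the 32678 genes of the deposited tables. They comprise 7 pollen transcription factors, 2 male germline genes, 2 secreted ligands, 7 receptor kinases, 6 cell wall genes, 5 cytoskeleton genes, 6 pumps and channels and 4 intracellular signalling genes. The rule that picks them uses no measured value, although the genes were chosen with earlier results of these data known. The sequenced tissue was the inflorescence apex with its flowers, the oldest of them at stage 12, in 3 wild type libraries and 3 libraries of *bpcV*, the quintuple mutant *bpc1-2 bpc2 bpc3 bpc4 bpc6*. All plants were of the Columbia-0 ecotype and were grown in long days of 16 h light and 8 h dark, and their age is not given in the sources used here. The labels call the 3 libraries of a genotype biological replicates, without saying whether plants were pooled.

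Pollen grains form in the anther, where each microspore divides into a vegetative cell and a generative cell that gives rise to the sperm. The vegetative cell later grows the pollen tube, whose tip extends on a balance of secretion, pectin modification, actin dynamics and fluxes of calcium and protons. Receptor kinases at the tip perceive peptides of the tube itself and of the pistil, and hold the wall together until the tube reaches the ovule. BPC proteins, encoded by *BASIC PENTACYSTEINE* genes, bind GA-rich DNA and act in flowers, ovules and fruits.

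Libraries held between 16196042 and 21455150 expected counts, of which the 39 genes took between 0.3457% and 0.495%. Among the mutated genes, *BPC1* had expected counts of 541, 383 and 414 in wild type against 15, 12 and 6 in *bpcV*. *BPC2* and *BPC6* differed in the same way, with log2 fold changes of -4.43 and -4.48. *BPC4* was at 53.28 to 57.25 TPM in wild type and 35.23 to 36.26 in *bpcV*. *BPC3* was at 3.71 to 5.81 TPM and 5.91 to 7.30 TPM, so reads of this gene were not fewer in the mutant.

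RNA of the pollen programme was plentiful in both genotypes. In TPM, a transcript share scaled by effective gene length and by library, 10 of the 39 genes had a mean of 100 or more over the 6 libraries, 17 a mean of 10 to under 100, 9 a mean of 1 to under 10, and 3 a mean under 1. The 3 lowest were the germline genes *DUO1* and *GCS1* and the transcription factor *MYB120*. Cell wall genes stood at the top: *VGD1*, *AGP40*, *AGP11*, *AGP6*, *VGDH1* and *PPME1* together held between 68.7% and 71.5% of the summed TPM of the 39 genes in every library. The sum was 3726.4, 3839.6 and 3858.5 TPM in wild type and 3272.2, 4326.7 and 3717.6 TPM in *bpcV*, so the mutant libraries lay on both sides of the wild type range. In bulk tissue, fewer pollen grains and less RNA per grain cannot be told apart.

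**Figure D1:**
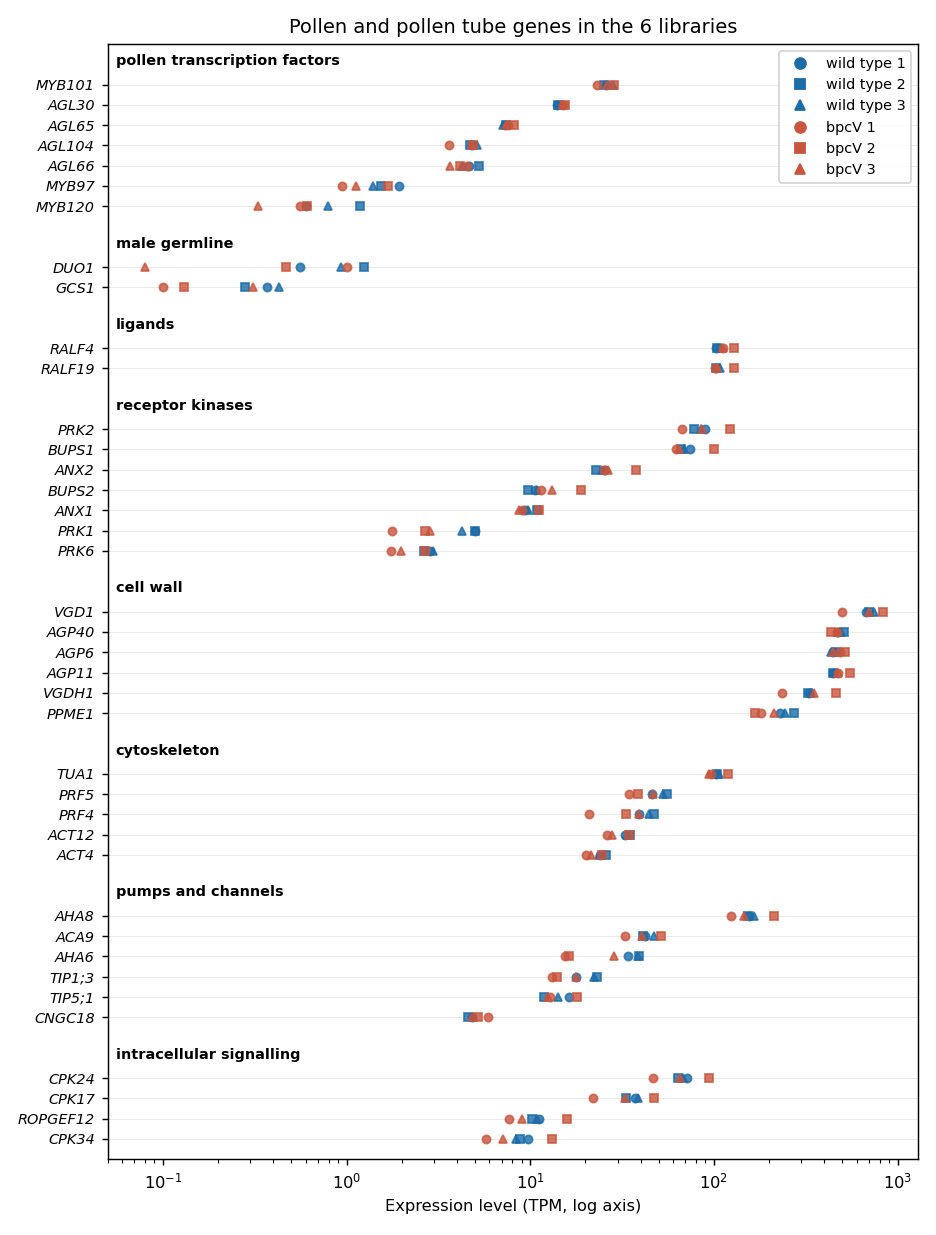
Level of each of the 39 genes in TPM (log axis) in every library, with the genes grouped by role. Blue symbols are wild type, red symbols *bpcV*, and the shape gives the replicate. Levels run from 0.08 TPM for *DUO1* in *bpcV* 3 to 838.27 TPM for *VGD1* in *bpcV* 2, and the wild type symbols lie closer together than the *bpcV* symbols for most genes.

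The genotypes were compared gene by gene, to ask whether loss of BPC function changes the pollen programme in these apices. All 39 genes passed the filter on low counts. With the quasi-likelihood test of edgeR, 0 of the 39 passed an FDR of 0.01 in either direction, while 3.89% of the 20813 genes tested did. At an FDR of 0.05, 2 of the 39 passed, *PRK1* and *AHA6*, both lower in *bpcV*, against 12% of all genes tested. At an unadjusted p under 0.05 the count was 6, which is 15.4% of the 39, against 28.3% of all genes tested. Those lower in *bpcV* were *PRK1*, *AHA6*, *PPME1*, *TIP1;3* and *PRF5*, and the one higher was *BUPS2*.

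Other tools called the same pair. DESeq2 gave 2 of the 39 at an adjusted p of 0.01, against 7.76% of the 22953 genes it tested, and the likelihood ratio test of edgeR gave 2, against 10.7%. In both, the 2 genes were *PRK1* and *AHA6*. In CPM, counts per library scaled with TMM factors, the wild type and *bpcV* libraries did not overlap for 9 of the 39 genes, with 4 lower and 5 higher in *bpcV*, while 35.8% of all genes tested did not overlap. In TPM the count was also 9, with 5 lower and 4 higher: *AGP40* and *PRF4* no longer overlapped there, while *CNGC18* and *PRK6* did. The share of all genes without overlap in TPM was not counted. By each of the other counts the share among the 39 genes was below that of all genes tested.

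The fitted differences were mostly small. The log2 fold change of *bpcV* relative to wild type was positive for 16 and negative for 23 genes, with a median of -0.06 against 0.010 over all genes tested, and it ran from -0.97 to 0.47. Its absolute value was under 0.25 for 26 genes and at least 0.5 for 5 genes. The median absolute value was 0.13, against 0.19 over all genes tested. The standard errors were larger than usual, with a median of 0.174 against 0.13, so a difference of moderate size could have been missed. Left-out libraries moved the median in both directions: it was 0.07 without *bpcV* 1 and -0.23 without *bpcV* 2.

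**Figure D2:**
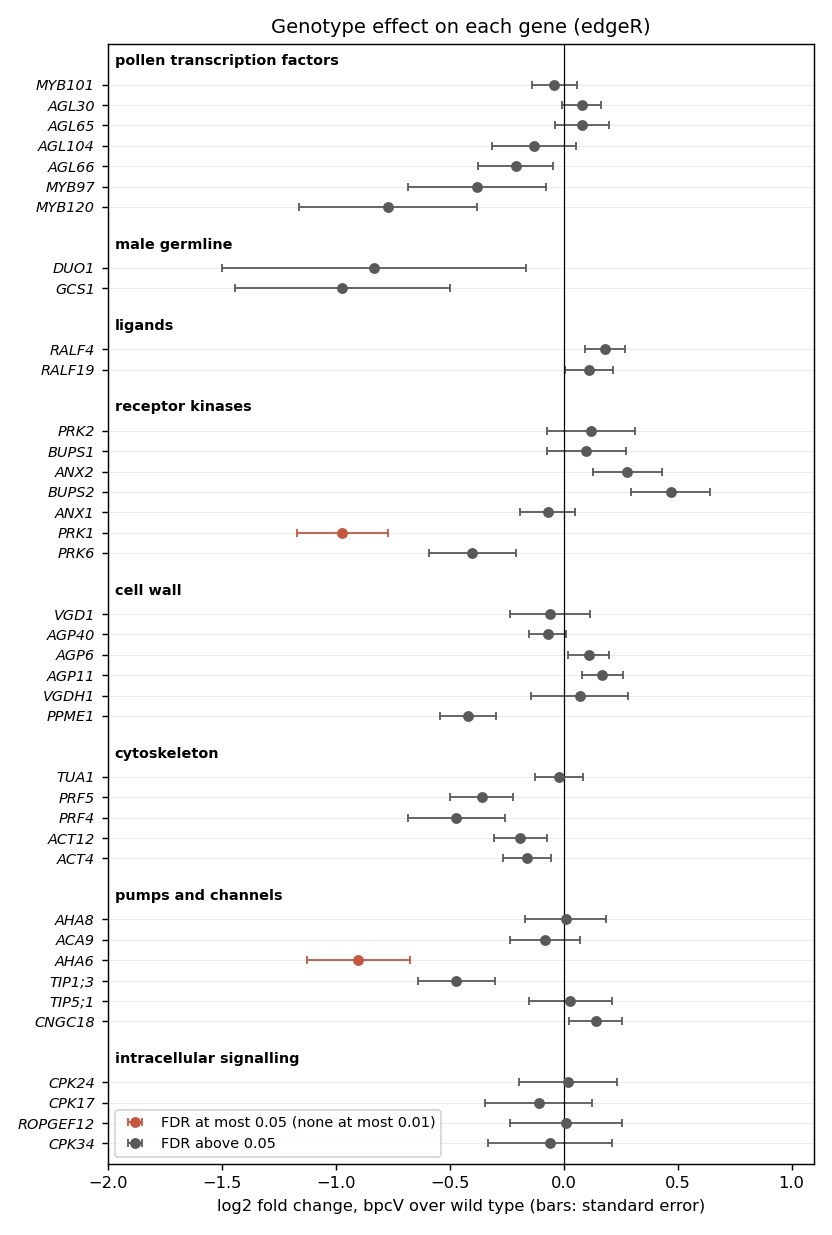
Log2 fold change of *bpcV* relative to wild type for each of the 39 genes, from edgeR, with its standard error as a bar. *PRK1* (-0.97) and *AHA6* (-0.90), in red, have an FDR of 0.05 or less, and none of the 39 reaches 0.01.

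The mutant libraries of these genes spread more widely than the wild type libraries. In wild type the SD of log2 CPM over the 3 libraries had a median of 0.0784 for the 39 genes, against 0.0964 for all genes tested. In *bpcV* it had a median of 0.31, against 0.184. It exceeded 0.3 for 2 of the 39 genes in wild type and for 21 in *bpcV*, and it was larger in *bpcV* than in wild type for 35 of the 39 genes, against 73.6% of all genes tested. These values are given as a description, with no test.

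The spread followed the library. *bpcV* 1 held the lowest value of the 6 libraries for 23 of the 39 genes, against 26.9% of all genes tested, and *bpcV* 2 held the highest value for 21, against 20.9%. Relative to the wild type mean, the median over the 39 genes was -0.38 on the log2 scale in *bpcV* 1, 0.14 in *bpcV* 2 and -0.12 in *bpcV* 3, while the medians over all genes tested were 0.008, -0.004 and 0.017. The mutant libraries thus differed among themselves in the level of the pollen programme more than their mean differed from wild type. In 7 genes (*PRK2*, *VGDH1*, *AHA8*, *ROPGEF12*, *CPK17*, *CPK34* and *CPK24*) *bpcV* 1 was over 0.25 below the wild type mean and *bpcV* 2 over 0.25 above it. In 8 others (*GCS1*, *MYB120*, *PRK1*, *PPME1*, *PRF4*, *PRF5*, *AHA6* and *TIP1;3*) both libraries were over 0.25 below it.

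**Figure D3:**
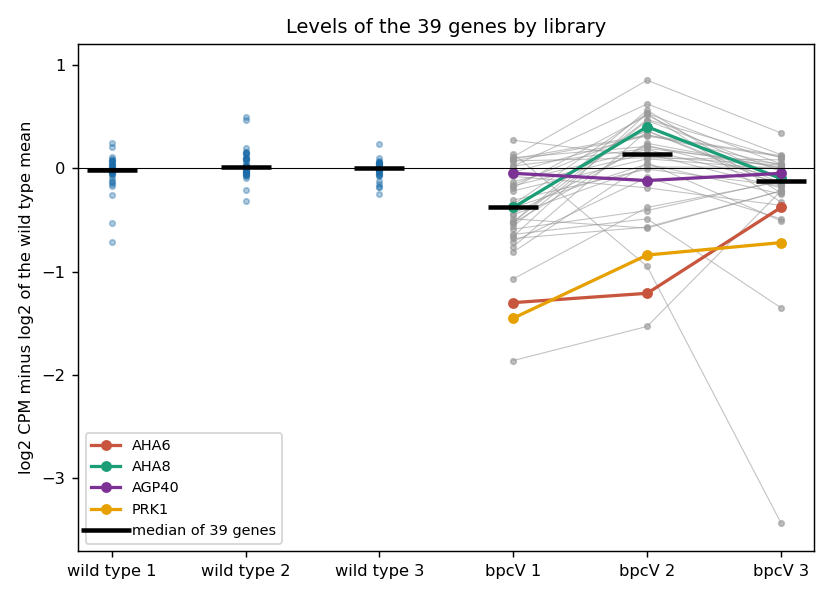
Log2 CPM of the 39 genes in each library minus the log2 of the wild type mean, with the median of the 39 genes as a black bar. Lines join the values of 1 gene in the *bpcV* libraries and imply no order. The medians of -0.38, 0.14 and -0.12 in *bpcV* 1, 2 and 3 contrast with wild type medians between -0.02 and 0.01.

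The pollen transcription factors kept close to their wild type levels where they were well measured. *AGL30* (AT2G03060), *AGL65*, *AGL66* and *AGL104* encode the MIKC* MADS-domain proteins, whose dimers bind MEF2-type CArG boxes and drive late pollen gene expression. *AGL30* was at 13.97, 14.21 and 14.42 TPM in wild type and 15.04, 15.44 and 15.06 TPM in *bpcV*. The groups did not overlap, but the log2 fold change was only 0.08 ± 0.086 (SE), with an edgeR FDR of 0.569. *AGL65* was at 7.10 to 7.42 TPM in wild type and 7.38 to 8.17 TPM in *bpcV*.

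The dimerization partners of these proteins were lower in level. *AGL66* was at 4.63, 5.28 and 4.26 TPM in wild type and 4.53, 4.17 and 3.64 TPM in *bpcV*, giving a log2 fold change of -0.21 ± 0.165. *AGL104* was at 4.83, 4.69 and 5.15 TPM in wild type and 3.62, 4.90 and 4.85 TPM in *bpcV*, giving a log2 fold change of -0.13 ± 0.185. For both, the groups overlapped, and *bpcV* 1 alone was low for *AGL104*. The ratio of *AGL65* to *AGL30* was 0.511 ± 0.0165 (SD, n = 3) in wild type and 0.507 ± 0.02 in *bpcV*.

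The MYB factors of the pollen tube, *MYB97*, *MYB101* and *MYB120*, act together in tube reception and sperm release at the ovule. *MYB101* (AT2G32460) was by far the most abundant, at 25.86, 25.35 and 28.27 TPM in wild type and 23.12, 28.45 and 26.05 TPM in *bpcV*. *MYB97* had expected counts of 34, 23 and 21 in wild type against 13, 25 and 19 in *bpcV*. *MYB120* had expected counts of 15, 25 and 17 against 11, 13 and 8, with a log2 fold change of -0.77 ± 0.39 and an edgeR FDR of 0.24. At such counts the error is wide, and the libraries of *MYB97* and *MYB120* overlapped on the scale of CPM.

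Since the targets of the MADS-domain dimers are known by a motif, the sequences before the transcription start were searched for it. The window ran from 250 bases before to 50 bases after the annotated start in TAIR10.1, on both strands. A MEF2-type CArG box stood in 9 of the 39 windows (23.1%), against 684 of the 27443 windows of the annotated genes (2.49%). The 9 genes were *AGL104*, *BUPS1*, *BUPS2*, *VGD1*, *VGDH1*, *ACT12*, *AHA8*, *AGP6* and *AGP40*. In *VGDH1* the box began 31 bases inside the transcript, and in the others it lay before the start. The stretches around the boxes are shown because these genes include some of the most abundant members. In each, the box is in capitals, the sequence reads from 5′ to 3′ on the strand of the gene, and the position is that of the first base of the box relative to the start.
*VGD1*, 57 bases before, chr2:19330220-19330279, minus strand: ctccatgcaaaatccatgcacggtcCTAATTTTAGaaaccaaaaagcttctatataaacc
*VGDH1*, within the transcript, chr2:19326445-19326454, minus strand: CTAATTTTAG
*AGP6*, 197 bases before, chr5:4636839-4636898, minus strand: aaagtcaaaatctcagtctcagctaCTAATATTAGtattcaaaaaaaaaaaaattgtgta
*AGP40*, 128 bases before, chr3:7309056-7309115, minus strand: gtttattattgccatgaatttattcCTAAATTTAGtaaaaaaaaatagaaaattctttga
*AHA8*, 160 bases before, chr3:14723933-14723962, plus strand: ttgagatgcaCTATTTTTAGaaagtgtaga
*ACT12*, 66 bases before, chr3:17128120-17128179, plus strand: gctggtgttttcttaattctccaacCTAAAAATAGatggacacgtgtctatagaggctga
*BUPS2*, 89 bases before, chr2:9205526-9205585, minus strand: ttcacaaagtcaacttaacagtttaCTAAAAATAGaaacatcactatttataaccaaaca
*BUPS1*, 107 bases before, chr4:18225326-18225355, minus strand: tagcaatttgCTAAATATAGaccattgaat
*AGL104*, 97 bases before, chr1:7814408-7814467, minus strand: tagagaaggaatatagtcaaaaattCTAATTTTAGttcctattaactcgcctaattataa

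The paralogues *VGD1* and *VGDH1*, which lie 1368 bases apart on chromosome 2, held the same 10 letters at different positions, and so did *AGL104*. *ACT12* and *BUPS2* also shared 1 form of the box, and *AHA8* held its reverse complement. The stretch of *BUPS1* overlaps the neighbouring annotated gene *AT4G39120*, and the other stretches before a start fall in no annotated gene. Genes with the box had a median log2 fold change of 0.01, from -0.19 to 0.47, and the 30 without it a median of -0.07, from -0.97 to 0.28. Neither group held a gene past an FDR of 0.01. A match is a string of letters, and binding was not measured in these libraries.

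GA-rich strings, the kind of DNA that BPC proteins bind, were about as frequent in the windows of the 39 genes as in those of all annotated genes. GAGAGA stood on either strand in 14 of the 39 windows (35.9%), against 29.2% of all windows. In *GCS1* and *CNGC18* it lay only inside the transcript. AGAAA, a string known from pollen promoters of tomato, stood in 37 (94.9%), against 88.5%. The longest run of GA repeats was in *MYB120*, and the runs of the transcription factor genes *MYB120*, *MYB97* and *AGL65* are shown with the repeat in capitals, as the CT strand that the genes' orientation gives.
*MYB120*, 131 bases before, chr5:22326513-22326574, minus strand: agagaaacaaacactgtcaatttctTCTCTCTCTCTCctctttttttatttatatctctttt
*MYB97*, 51 bases before, chr4:13527502-13527559, plus strand: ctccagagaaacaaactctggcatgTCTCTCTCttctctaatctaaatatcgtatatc
*AGL65*, 13 bases before, chr1:6466629-6466666, plus strand: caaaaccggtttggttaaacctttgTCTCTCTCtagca

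The male germline genes were scarcely measurable. *DUO1*, the MYB factor that specifies sperm, had expected counts of 7, 13 and 10 in wild type against 10, 5 and 1 in *bpcV*. *GCS1*, which encodes the protein that fuses the gamete membranes, had expected counts of 14, 9 and 14 against 3, 4 and 11. The log2 fold changes were -0.83 ± 0.666 and -0.97 ± 0.471, with edgeR FDR values of 0.463 and 0.221. The log2 fold change of *DUO1* was -1.69 without *bpcV* 1 and -0.29 without *bpcV* 3, and that of *GCS1* -1.65 without *bpcV* 3. The libraries of both genes overlapped, and at these counts and this spread neither difference passed the test.

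The ligands and the receptors of the tube tip form 1 pathway. *RALF4* and *RALF19* encode peptides that the pollen tube secretes, and the ANX and BUPS receptor kinases bind them and keep the tube from bursting. *RALF4* (AT1G28270) was at 103.00, 103.77 and 106.87 TPM in wild type and 112.00, 129.44 and 112.33 TPM in *bpcV*. All *bpcV* libraries were above all wild type libraries, by a log2 fold change of 0.18 ± 0.0877, with an edgeR FDR of 0.223. *RALF19* was at 102.13, 102.36 and 107.70 TPM and 102.03, 129.16 and 104.50 TPM, with a log2 fold change of 0.11 ± 0.106. The 2 ligand genes were thus transcribed at nearly equal levels, with a ratio of *RALF4* to *RALF19* between 0.992 and 1.1 in every library.

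Their receptors differed in level, with 1 gene of each pair ahead. *BUPS1* (AT4G39110) was at 74.43, 66.51 and 68.38 TPM in wild type and 62.32, 100.14 and 64.24 TPM in *bpcV*. *BUPS2* was at 10.68, 9.69 and 10.87 TPM and 11.43, 18.93 and 13.08 TPM. *BUPS2* had the highest log2 fold change of the 39 genes, 0.47 ± 0.174, with an edgeR FDR of 0.123 and no overlap between the genotypes, although *bpcV* 1 and *bpcV* 2 stood far apart. *ANX2* was at 25.66, 22.86 and 24.76 TPM and 25.24, 37.79 and 26.47 TPM, and *ANX1* at 9.39, 10.92 and 9.71 TPM and 9.04, 11.12 and 8.71 TPM. Their log2 fold changes were 0.28 ± 0.15 and -0.07 ± 0.121.

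The PRK receptor kinases carry leucine-rich repeats. PRK2 relays signals to the small GTPases of the tip through exchange factors such as ROPGEF12, and PRK6 senses the LURE attractants of the ovule. *PRK2* was the most abundant receptor kinase, at 89.10, 78.21 and 85.50 TPM in wild type and 67.46, 122.42 and 85.80 TPM in *bpcV*. *PRK6* was at 2.84, 2.65 and 2.95 TPM and 1.75, 2.66 and 1.99 TPM, with a log2 fold change of -0.40 ± 0.19 and an edgeR FDR of 0.207.

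*PRK1* (AT5G35390) had the smallest p of the 39 genes. Its expected counts were 169, 143 and 124 in wild type against 47, 76 and 92 in *bpcV*, or 4.77 ± 0.425 TPM (SD, n = 3) and 2.44 ± 0.579 TPM. No *bpcV* library reached the wild type range, with a log2 fold change of -0.97 ± 0.2. The edgeR FDR was 0.0187, above the threshold of 0.01, while DESeq2 gave an adjusted p of 0.000934 and the likelihood ratio test of edgeR 0.000132. The 16 alternatives ranged from 0.000132 to 0.0785, the highest without wild type 1. *PRK1* shares 50 bases with the neighbouring gene *AT5G35400*, whose expected counts were 116 to 156 in wild type against 106 to 155 in *bpcV*.

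Cell wall genes made up the bulk of the summed TPM of the 39 genes. *VGD1* and *VGDH1* encode pectin methylesterases that modify the wall of the growing tube. *VGD1* was at 677.33, 699.17 and 741.17 TPM in wild type and 498.81, 838.27 and 699.29 TPM in *bpcV*, the highest level of the 39 genes in both genotypes. *VGDH1* was at 329.80, 324.86 and 339.13 TPM and 234.61, 462.94 and 351.03 TPM. The mutant libraries of both genes surrounded the wild type range, with log2 fold changes of -0.06 ± 0.177 and 0.07 ± 0.213.

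*PPME1*, a pectin methylesterase needed for regular tube growth, had another pattern. It was at 229.76, 273.60 and 243.54 TPM in wild type and 180.02, 167.41 and 211.68 TPM in *bpcV*. All 3 mutant libraries were below wild type, by a log2 fold change of -0.42 ± 0.122, with an edgeR FDR of 0.0594. Over the alternatives the FDR ranged from 0.0166 to 0.194. *PPME1* was also the only one of the 39 genes with a count that was not whole, 2977.32 in *bpcV* 1, while the counts of the other 38 were whole to within 0.005 in every library.

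The arabinogalactan genes varied little between libraries. *AGP6* and *AGP11* encode arabinogalactan proteins of the pollen wall that act redundantly in pollen development, and *AGP40* encodes a short arabinogalactan peptide. *AGP6* was at 431.90 to 463.28 TPM in wild type and 443.10 to 515.86 TPM in *bpcV*, and *AGP11* at 446.00 to 448.78 TPM and 471.88 to 551.06 TPM. *AGP11* did not overlap between the genotypes, yet its log2 fold change was 0.17 ± 0.0913, with an edgeR FDR of 0.274. *AGP40* was at 471.22, 511.94 and 490.96 TPM and 468.32, 436.26 and 465.52 TPM, with a log2 fold change of -0.07 ± 0.0809. *bpcV* 2 was its lowest library, as for only 2 of the 39 genes.

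The cytoskeleton genes all had negative log2 fold changes, from -0.47 to -0.02, and none passed the test. *ACT4* and *ACT12* encode actins of mature pollen. *ACT12* was at 32.67 to 34.84 TPM in wild type and 26.23 to 34.73 TPM in *bpcV*, and *ACT4* at 23.59 to 25.82 TPM and 20.05 to 24.55 TPM. Of the 39 genes, 11 overlap another annotated gene, *ACT12* by the longest stretch among those with a measured neighbour. Of the 3256 bases of the *ACT12* gene, 1167 are shared with the neighbouring gene *AT3G46530*. With strand not stated, reads of both genes may not have been told apart. The expected counts of *ACT12* were whole in every library. *TUA1*, an alpha tubulin of pollen, was at 102.48 to 106.13 TPM and 93.59 to 118.72 TPM.

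The profilins, which bind actin monomers, were the lowest of this group in *bpcV* relative to wild type. *PRF5* was at 45.86, 55.59 and 52.72 TPM in wild type and 34.32, 38.44 and 46.57 TPM in *bpcV*, giving a log2 fold change of -0.36 ± 0.138 and an edgeR FDR of 0.136. *PRF4* was at 39.33, 47.09 and 44.32 TPM and 20.87, 33.20 and 39.22 TPM, with a log2 fold change of -0.47 ± 0.211 and an FDR of 0.189. In both genes *bpcV* 3 lay within or next to the wild type range, and the CPM of the genotypes overlapped.

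The proton pumps differed among themselves. AHA6 and AHA8 are proton pumps of the plasma membrane that act together with AHA9 in pollen tube growth. *AHA6* (AT2G07560) had expected counts of 1982, 1916 and 1920 in wild type against 700, 790 and 1570 in *bpcV*, or 37.3 ± 2.79 TPM (SD, n = 3) and 20.1 ± 7.3 TPM. All *bpcV* libraries were below wild type, but *bpcV* 1 and *bpcV* 2 far more than *bpcV* 3. The log2 fold change was -0.90 ± 0.227 with an edgeR FDR of 0.0378, while DESeq2 gave an adjusted p of 0.000915 and the likelihood ratio test of edgeR 0.00221. Without *bpcV* 3, the FDR was 0.00342 and the log2 fold change -1.25, and over all alternatives the FDR reached 0.122 at most.

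*AHA8* was the most abundant of the transport genes. It was at 155.59, 153.80 and 165.38 TPM in wild type and 124.07, 211.41 and 146.34 TPM in *bpcV*, giving a log2 fold change of 0.01 ± 0.178. *bpcV* 2 was thus the highest library for *AHA8* and far below wild type for *AHA6*. *AHA9*, from the list of further pollen genes, was at 47.51, 56.51 and 51.54 TPM and 25.41, 23.32 and 46.66 TPM, so its 2 lowest libraries were those of *AHA6*. Its log2 fold change was -0.72 ± 0.252, with an edgeR FDR of 0.106, and 0.00581 without *bpcV* 3.

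Among the other transport genes, *CNGC18*, the calcium channel that tube growth requires, was at 4.61 to 4.91 TPM in wild type and 4.84 to 5.88 TPM in *bpcV*. *ACA9*, a calcium pump of the plasma membrane, was at 41.36 to 47.52 TPM and 32.91 to 51.65 TPM. *TIP1;3* and *TIP5;1* encode aquaporins of pollen. *TIP1;3* was at 17.70, 23.04 and 22.34 TPM and 13.17, 14.02 and 17.87 TPM, with a log2 fold change of -0.47 ± 0.17 and an edgeR FDR of 0.115. *TIP5;1* was at 11.96 to 16.32 TPM and 12.43 to 18.07 TPM, with a log2 fold change of 0.03 ± 0.181.

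The intracellular signalling genes stood far apart in *bpcV* 1 and *bpcV* 2, with log2 fold changes close to 0. *CPK17* and *CPK34* encode calcium-dependent kinases that act together in tube tip growth, and CPK24 regulates a potassium channel of pollen. *CPK24* was at 71.32, 63.74 and 68.04 TPM in wild type and 46.88, 94.12 and 65.71 TPM in *bpcV*. *CPK17* was at 37.29, 33.37 and 38.66 TPM and 21.88, 47.10 and 32.66 TPM. *CPK34* and *ROPGEF12* followed the same order, at 5.78, 13.10 and 7.11 TPM and at 7.63, 15.92 and 8.98 TPM in *bpcV*. The log2 fold changes of the 4 genes ran from -0.11 to 0.02, and the smallest edgeR FDR was 0.802.

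Paralogues were also compared with each other within each library. The 14 pairs were chosen after values had been seen, and no test was run. For 10 pairs the ratios of the genotypes overlapped, among them *CPK34* to *CPK17*, at 0.248 ± 0.0265 (SD, n = 3) in wild type and 0.253 ± 0.0316 in *bpcV*, and *AGP6* to *AGP11*, at 1 ± 0.0382 and 0.966 ± 0.0528. In the remaining 4 pairs they did not. How often the ratios of other gene pairs separate in this way was not counted, and for single genes 35.8% of all tested did not overlap in CPM. The ratio of *AHA6* to *AHA8* was 0.219, 0.255 and 0.233 in wild type and 0.124, 0.077 and 0.195 in *bpcV*. The ratio of *PRK1* to *PRK2* was 0.0568 ± 0.00715 and 0.0272 ± 0.00576, that of *ANX1* to *ANX2* 0.412 ± 0.0584 and 0.327 ± 0.032, and that of *BUPS2* to *BUPS1* 0.149 ± 0.00837 and 0.192 ± 0.0104. The *BUPS* ratio was far more even among the *bpcV* libraries (0.183, 0.189 and 0.204) than the level of either gene.

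**Figure D4:**
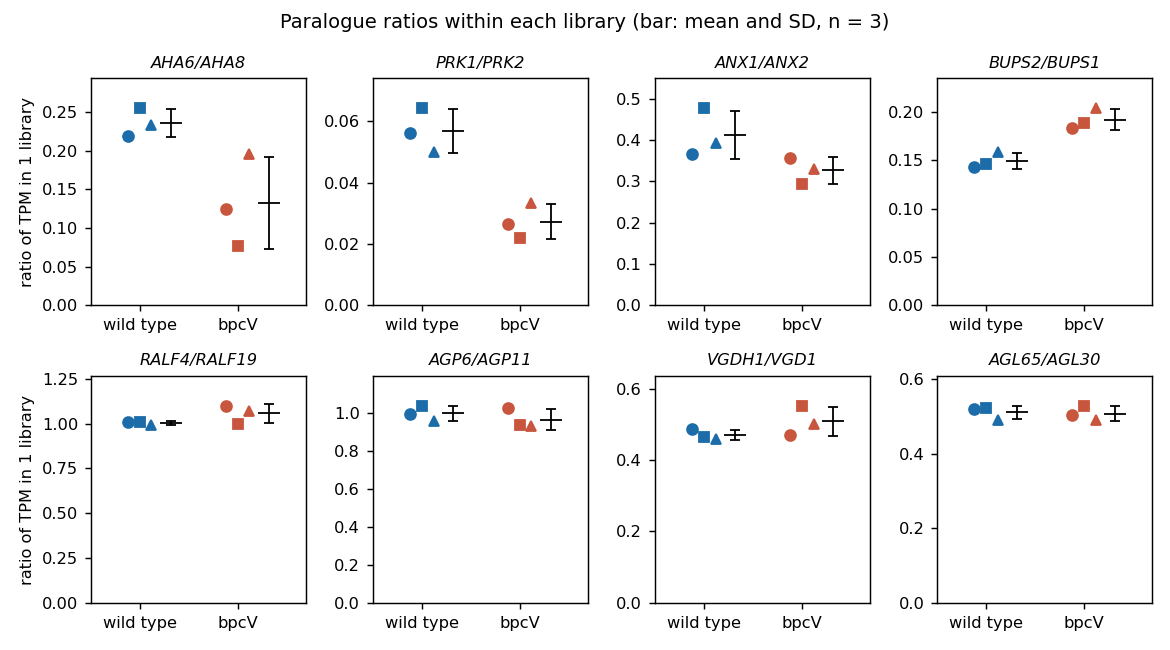
Ratio of the TPM of 2 paralogues within each library for 8 of the 14 pairs. Circles, squares and triangles are replicates 1, 2 and 3, blue is wild type and red *bpcV*, and the bars give mean and SD (n = 3). The upper row holds the 4 pairs whose genotypes do not overlap, and the lower row 4 whose genotypes overlap, such as *RALF4* to *RALF19*, which stays between 0.992 and 1.1.

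Further genes of the male gametophyte were counted in the same way. Of 77 genes in 6 lists of pollen receptor and ROP signalling, sperm, pectin, cytoskeleton, transport and transcription factor genes, 73 were tested, and 37 had a positive and 36 a negative log2 fold change, with a median of 0.00 and a range from -0.88 to 2.37. Of these, 1 rose at an FDR of 0.01 in edgeR and 1 fell, against 3.89% of all genes tested. *ACT11*, an actin of pollen and ovules, rose from 45 ± 2.79 TPM (SD, n = 3) to 68.5 ± 6.37 TPM, by a log2 of 0.60 ± 0.0981 with an FDR of 0.00736. *PLIM2b*, a pollen LIM protein that bundles actin, had a log2 fold change of -0.57 ± 0.0849 with an FDR of 0.00524, from 59.6 ± 2.74 TPM to 40.1 ± 1.92 TPM. Of 16 alternatives, *ACT11* kept its call in 8 and *PLIM2b* in 10. Both calls were lost with the replicate block, without *bpcV* 2 or *bpcV* 3 and without any 1 of the wild type libraries, with FDR values up to 0.0523 and 0.0326, and that of *ACT11* also with limma.

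The extremes of these lists, named after their values were seen, came from sperm and pectin genes. *DMP8*, a sperm membrane protein gene, had 3, 4 and 1 expected counts in wild type against 13, 17 and 11 in *bpcV*, with the log2 fold change of 2.37 ± 0.511 and an edgeR FDR of 0.0215. It passed the filter on low counts through its *bpcV* libraries alone, so this FDR is not read as a result. Of the 14 sperm genes, 11 passed the filter, and those that did not had few counts in wild type too. *IMPA8* had 10, 9 and 16 expected counts in wild type against 0, 3 and 2 in *bpcV*. *DAZ2* had 12, 8 and 11 against 3, 4 and 7, and *DAZ1* 6, 11 and 13 against 8, 4 and 3. The gene *AT5G48140*, an exopolygalacturonase, was at 127.78, 121.73 and 111.91 TPM and 55.89, 84.90 and 56.05 TPM, giving -0.88 ± 0.165 with an FDR of 0.0129. Another, *AT3G07850*, was at 606 ± 39.7 TPM (SD, n = 3) and 438 ± 68.2 TPM, with an FDR of 0.0589, and RSEM divided its reads, since its counts were not whole. The libraries of *DMP8*, *AT5G48140* and *AT3G07850* did not overlap between the genotypes, and nor did those of 35.8% of all genes tested. As the 3 genes were named for their values, this adds no support for a difference. Of the 13 pectin genes, 4 were lower and 1 higher in *bpcV* at an unadjusted p under 0.05, a threshold that 28.3% of all genes tested passed. Among the lower ones, *AT3G07850* and *AT3G14040* both had counts that were not whole, so they may not be separate observations.

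The most abundant genes of the other lists were not past the threshold. *LLG2*, a co-receptor of the ANX and BUPS kinases, was at 32.3 ± 2.52 TPM (SD, n = 3) in wild type and 44.6 ± 4.64 TPM in *bpcV*, with an edgeR FDR of 0.0351, and *ROP1*, a small GTPase of the tube tip, at 33.4 ± 4.63 and 38.8 ± 8.66 TPM. *PCR11*, of the sperm list, was at 24.4 ± 2.52 and 37.6 ± 6.35 TPM, with an FDR of 0.0406, and *DAZ3*, a target of DUO1, at 16.1 ± 3.28 and 16.2 ± 3.96 TPM. The polygalacturonase gene *PGA4* was at 809 ± 68.2 and 813 ± 148 TPM, and the pectate lyase-like gene *AT3G01270* at 603 ± 33.3 and 628 ± 170 TPM. *CPK32* was at 25.2 ± 0.781 and 30.1 ± 7.95 TPM, *AGL18* at 36.9 ± 2.5 and 33 ± 8.13 TPM, and *bZIP18* at 24.4 ± 0.668 and 28.8 ± 0.453 TPM.

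Family members with broad expression served as a comparison. Of 25 such genes, all tested, 1 rose and 0 fell, which is 4% against 3.89% of all genes tested. The gene that rose was *RALF23*, a RALF peptide gene of leaves and other organs, from 78.7 ± 2 TPM (SD, n = 3) to 113 ± 9.12 TPM, with a log2 fold change of 0.54 ± 0.0874 and an edgeR FDR of 0.00744. It kept its call in 9 of 16 alternatives and lost it with limma, with the replicate block, without *bpcV* 3 and without any 1 of the wild type libraries, where the FDR was up to 0.0491.

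Tapetum and pollen coat genes, which are made by the anther tissue that feeds the pollen, were low in the same libraries as some of the 39. Of 19 genes, 17 were tested, and none passed an FDR of 0.01, but all 17 log2 fold changes were negative, with a median of -0.59 and a range from -1.24 to -0.23, and 5 had an unadjusted p under 0.05, which is 29.4% against 28.3% of all genes tested. Wild type 3 was the highest library for all 17, and without it 16 were negative, with a median of -0.29. Their summed level was 2260.0, 2301.4 and 3037.7 TPM in wild type and 1235.2, 1218.3 and 2354.8 TPM in *bpcV*, and without the abundant *GRP17* and *GRP19* it was 548.7, 591.0 and 907.3 TPM and 351.6, 352.6 and 611.0 TPM. *bpcV* 1 and *bpcV* 2 were thus the lowest libraries of the sum, as they were for *AHA6*, *AHA9*, *PPME1* and *TIP1;3*, while *bpcV* 2 was high in the summed level of the 39 genes. Not every tapetum gene tested was low in *bpcV* 1: *A9*, *A7*, *CYP704B1*, *ABCG26* and *MS1* were higher there than in wild type 1. The pollen coat oleosin *GRP17* was at 903.01, 855.68 and 1015.57 TPM and 144.10, 526.40 and 867.44 TPM, and *GRP19* at 926 ± 165 and 652 ± 279 TPM (SD, n = 3). The log2 fold change of *GRP17*, -0.85, was -0.41 without *bpcV* 1 and -1.49 without *bpcV* 3, and that of *GRP19*, -0.49, was -0.18 without *bpcV* 2 and -0.77 without *bpcV* 3. *AMS* had the lowest log2 fold change, -1.24 ± 0.307, with an edgeR FDR of 0.0358. It was at 21.3 ± 6.33 TPM in wild type and 8.97 ± 4.02 TPM in *bpcV*. *LAP6* and *LAP5* had FDR values of 0.0376 and 0.0457, and 12% of all genes tested had an FDR of 0.05 or less. The early tapetum regulators *DYT1* and *TDF1* were at 1.25 TPM or less in every library and were not tested. *TDF1* had expected counts of 11, 15 and 16 in wild type against 5, 0 and 3 in *bpcV*. The part that the amount of tapetum or the age of the flowers had in the values of the 39 genes was not tested.

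**Figure D5:**
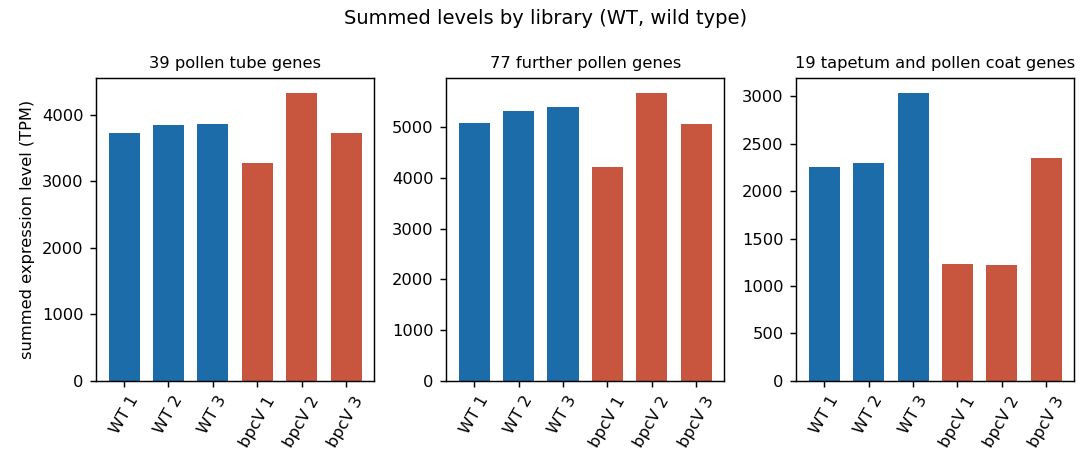
Summed TPM in each library of the 39 pollen and pollen tube genes, of 77 further pollen genes and of 19 tapetum and pollen coat genes, with wild type in blue and *bpcV* in red. *bpcV* 2 is the highest library in the first 2 panels, at 4326.7 and 5679.8 TPM, and the lowest in the third, at 1218.3 TPM.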

How the data were processed

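RNA of 3 wild type and 3 *bpcV* samples was sequenced as paired-end poly-A libraries. The authors used bowtie2 to align reads against the TAIR10 transcriptome. They deposited RSEM expected counts, without normalization, and TPM values, scaled by RSEM for effective gene length and library. Strandedness of the libraries is not given in the sources used here. A deposited table with the authors' own fold changes, p-values and FDR was not used.

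Expected counts were rounded, filtered with filterByExpr of edgeR 4.0.16 (minimum count 10, minimum total 15), scaled with TMM factors and compared by genotype with its quasi-likelihood test in R 4.3.3, at an FDR of 0.01. The study's methods name this test and this FDR, but no rounding, filter or size factors. p-values were adjusted by Benjamini-Hochberg over all 20813 genes tested. The standard error is the absolute log2 fold change divided by the square root of F. An exact permutation test of 3 against 3 libraries cannot give a p under 0.1, so single values were not tested in that way. The script was tested on simulated data. Totals ranged from 16196042 to 21455150 expected counts, and edgeR's common coefficient of variation was 13%.

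The 39 genes and 9 further lists of 127 genes were chosen with earlier results of these data known. All 39 may be named, and per-library values are given for those with the smallest p and for transcription factors, ligands and receptor kinases. From the further lists, genes past the threshold or the 2 most abundant are named. Other tapetum genes, among them *AMS*, *DYT1* and *TDF1*, and other sperm and pectin genes were added after their values were seen. Promoters, positions and overlaps come from RefSeq's TAIR10.1, in which all 39 genes were found. The authors' build is TAIR10. Alternatives were DESeq2 1.42.0, limma 3.58.1 on log2(TPM + 1) or log2(TPM + 0.1), other size factors, filters and thresholds, the likelihood ratio test, a replicate block and each library left out.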

Additional observations from a re-analysis of the deposited data

How the results depend on the processing

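No member passed the FDR of 0.01 under other size factors, other filters, limma or the replicate block. The 2 members called were *PRK1* and *AHA6* in DESeq2, in the likelihood ratio test and at an FDR of 0.05. With a library left out, 0 to 1 members were called. The count over all genes, 809, was 1782 with DESeq2, 2233 with the likelihood ratio test, 532 with limma and a pseudocount of 0.1, 408 with the replicate block, 2506 at an FDR of 0.05 and 434 where a log2 fold change of 1 or more in size was also asked. With a library left out it was 167 to 1249, the lowest without wild type 2 and the highest without *bpcV* 1. The median log2 fold change of the members was -0.07 to -0.05 over the settings that kept all libraries, and -0.23 to 0.07 with a library left out. Samples of the same number did not deviate together (r = -0.019, -0.013 and 0.177), so the numbers were not taken as pairs. The block left *ACT11*, *PLIM2b* and *RALF23* at FDR values of 0.025, 0.0182 and 0.0236.

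Log2 fold changes near 0 changed sign. That of *AHA8* was -0.00085 with at least 10 counts in every library, -0.01 with limma at either pseudocount and -0.03 with the block. That of *ROPGEF12* was -0.00056 with RLE factors, -0.0047 with the 10-count filter, -0.05 and -0.06 with limma and -0.06 with the block. That of *CPK24* was -0.03 with limma and -0.04 with the block. That of *PGA4* was -0.0021 with DESeq2, -0.0059 with RLE factors, -0.01 with the 10-count filter, -0.006 with limma and -0.01 with the block. That of *DAZ3* was -0.0012 with RLE factors, -0.0052 with the 10-count filter, and -0.00054 and -0.0011 with limma.

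With a library left out, the log2 fold change ranged from -0.26 to 0.07 for *ACA9*, -0.20 to 0.0033 for *AGL104*, -0.23 to 0.17 for *AHA8*, -0.18 to 0.0018 for *ANX1*, -0.15 to 0.23 for *BUPS1*, -0.41 to 0.13 for *CPK17*, -0.27 to 0.24 for *CPK24*, -0.48 to 0.16 for *CPK34*, -0.11 to 0.04 for *MYB101* and -0.14 to 0.30 for *PRK2*. It ranged from -0.0023 to 0.18 for *RALF19*, -0.37 to 0.20 for *ROPGEF12*, -0.17 to 0.14 for *TIP5;1*, -0.13 to 0.03 for *TUA1*, -0.24 to 0.12 for *VGD1* and -0.18 to 0.29 for *VGDH1*. Among further genes it ranged from -0.19 to 0.18 for *DAZ3*, -0.18 to 0.53 for *EC1.4*, -0.11 to 0.14 for *PGA4* and -0.14 to 0.25 for *AT3G01270*. The cause of these changes was not tested. Limma and the 10-count filter left 36 members, without *DUO1*, *GCS1* and *MYB120*, whose counts limit what can be said of them. With a library left out, *DUO1* ranged from -1.69 to -0.29 and *GCS1* from -1.65 to -0.71.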

Other observations

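The members made up a small part of the summed TPM of most of the family lists compared here, which need not hold whole families. The 2 pollen profilins *PRF4* and *PRF5* held 11.7%, 13.5% and 12.6% of the TPM of 4 profilin genes in wild type and 8.99%, 9.5% and 10.5% in *bpcV*, with no overlap between the genotypes. *ACT4* and *ACT12* held 3.11% to 4.51% of 8 actin genes, and *TUA1* 5.09% to 6.61% of 6 alpha tubulin genes. *AHA6* and *AHA8* held 25.7% to 31.6% of 6 proton pump genes. *RALF4* and *RALF19* held 46.3%, 48.9% and 47.7% of 6 RALF genes in wild type and 42.9%, 45.6% and 41.8% in *bpcV*, also with no overlap. Their own log2 fold changes were positive, at 0.18 and 0.11. Those of *RALF23*, *RALF22*, *RALF33* and *RALF1*, which also enter the share, were 0.54, 0.46, 0.22 and 0.20. The families were chosen after values had been seen, and no test was run. How often the shares of other families separate in this way was not counted.

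Genes of the female gametophyte, 5 of the egg cell and the synergid regulator *MYB98*, were at low levels, and 2 of the 6 passed the filter on low counts. *EC1.4* was at 7.86 ± 4.27 TPM (SD, n = 3) in wild type and 8.71 ± 2.17 TPM in *bpcV*, and *EC1.1* at 1.76 ± 0.437 and 2.48 ± 0.352 TPM, with edgeR FDR values of 0.817 and 0.341.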
